A study of Mus musculus with 4 samples.

Results

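The genes described are 4 members of the Oas1 family (Oas1c, Oas1d, Oas1e and Oas1h) and 3 members of the Oosp family (Oosp1, Oosp2 and Oosp3), taken by gene symbol. All 7 symbols were among the 16861 genes listed in each library, and all 7 passed the filter on low values, as did 11672 genes in all. The libraries came from germinal vesicle oocytes of 3-week-old female C57BL/6J mice, with no treatment or allele that differed between groups. Oocytes were freed of cumulus cells by pipetting, sorted under a DNA dye by chromatin configuration, and those of unclear type were left out. The groups are named for the nucleolus, which is encircled by compact chromatin in SN (surrounded nucleolus) oocytes and lacks this rim in NSN (non-surrounded nucleolus) oocytes. Each configuration had 2 Smart-seq2 libraries made from 15 pooled oocytes each. Levels are in FPKM, read pairs per length of gene and relative to the total of each library, and these totals ranged from 17069772 to 17998361 read pairs.

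Oligoadenylate synthetases (OAS) are interferon-induced enzymes that sense double-stranded RNA and make 2-5A, a short oligoadenylate that acts as a signal in antiviral defence. Mice carry a row of duplicated Oas1 genes, several of which are known mainly from the ovary and oocyte and lack synthetase activity. Oosp genes encode small oocyte-secreted proteins related to PLAC1 and to the N-terminal part of the zona pellucida proteins.

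Oas1c, Oas1d and Oas1e fell in SN oocytes, to between 0.693 and 0.702 times their NSN means, and Oosp2 rose to 1.26 times its NSN mean. That is 3 of 7 genes called lower and 1 of 7 called higher. Over all 11672 tested genes, 1.98% were called lower and 5.95% higher. A call needed a limma p, adjusted by Benjamini-Hochberg, below 0.05 together with a 1.2-fold change or more. The labels do not say that the libraries came from separate animals, so the p-values measure the spread between these samples and not between animals. In limma the variance of each gene was also drawn toward that of genes at like levels. In such pooled libraries, fewer oocytes that hold a transcript and less of it per oocyte cannot be told apart. Because FPKM are relative to each library total, these values do not give amounts per oocyte.

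Oas1e was the most abundant of the 7 genes. Its FPKM was 3924 and 3746 in NSN and 2782 and 2531 in SN. The groups did not overlap, SN being lower, and the gene ranked 12 and 13 among all listed genes in NSN and 17 and 20 in SN. The mean went from 3835 ± 126 (SD, n = 2) to 2656 ± 177 (SD, n = 2), a log2 fold change (of FPKM + 0.5, SN minus NSN) of −0.53 with a standard error of 0.08 (limma adjusted p = 0.0364).

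Oas1d encodes an oocyte protein that is known to bind OAS1A and to limit its synthetase activity. Its FPKM was 2266 and 2230 in NSN and 1688 and 1468 in SN, with no overlap between the groups. The log2 fold change was −0.51 with a standard error of 0.09 (limma adjusted p = 0.0364). Oas1c had an FPKM of 1375 and 1251 in NSN and 967 and 857 in SN, again without overlap. Its log2 fold change was −0.53 with a standard error of 0.09 (limma adjusted p = 0.0375). The 3 calls were lost without NSN replicate 1, where log2 fold changes were −0.46 for Oas1c, −0.50 for Oas1d and −0.50 for Oas1e, and without SN replicate 2, where they were −0.44, −0.41 and −0.46. They were also lost without a filter on low values and without a variance trend, where limma called 0 genes in all (4092 and 3449 had an unadjusted p under 0.05), and those of Oas1c and Oas1d after quantile normalization (limma adjusted p = 0.0558 and 0.0562).

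Oas1h showed a smaller difference. Its FPKM was 1706 and 1727 in NSN and 1454 and 1494 in SN. Both SN values were lower, but the log2 fold change of −0.22 with a standard error of 0.07 did not pass the test (limma adjusted p = 0.0803). All 4 Oas1 members were lower in each SN library than in each NSN library, as were 17.8% of all tested genes. With voom on recovered read pairs the adjusted p of Oas1h was 0.0298, while its fold change stayed under the required size.

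Relative to the other Oas1 members, Oas1h was higher in both SN libraries. The FPKM ratio of Oas1h to Oas1e was 0.435 and 0.461 in NSN and 0.523 and 0.590 in SN. The ratio of Oas1h to Oas1d was 0.753 and 0.775 in NSN and 0.861 and 1.02 in SN. Neither ratio overlapped between groups, and the exact two-sided permutation test gave p = 0.333 for each, the smallest that 2 against 2 libraries allow. By contrast, the ratio of Oas1e to Oas1c overlapped, at 2.85 and 2.99 in NSN and 2.88 and 2.95 in SN (exact permutation p = 1). The ratio of Oas1e to Oas1d overlapped as well, at 1.73 and 1.68 in NSN and 1.65 and 1.72 in SN (exact permutation p = 0.667).

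Together the 4 Oas1 members took up a visible part of the oocyte messenger RNA. They held 1.77% (308158) and 1.71% (305572) of the counted read pairs in NSN, and 1.31% (223820) and 1.2% (216595) in SN. The Wilson 95% interval of the first of these shares ran from 1.76% to 1.78% and, like the others, covers counting error only. The 3 Oosp members held 0.236% and 0.240% in NSN and 0.237% and 0.269% in SN.

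**Figure D1:**
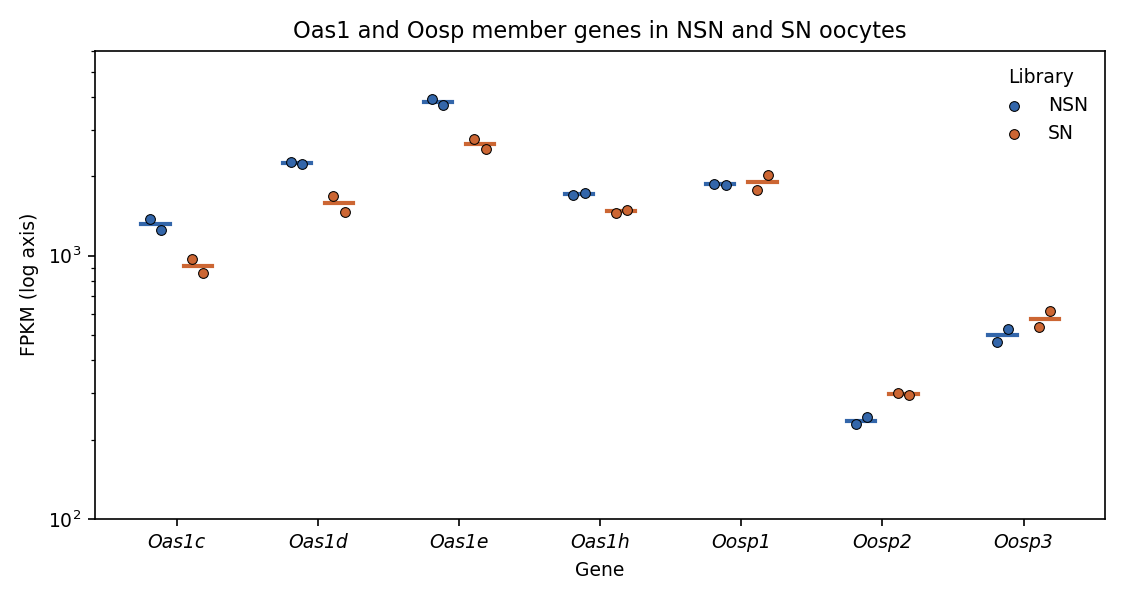
FPKM of the 7 genes in each library on a log axis, with NSN in blue and SN in orange; points are single libraries and bars are the means of 2 libraries. The SN points lie below the NSN points for the 4 Oas1 genes, overlap them for Oosp1 and lie above them for Oosp2 and Oosp3, as deposited; after median scaling the mean of Oosp1 is lower in SN.

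Of the Oosp genes, which code for secreted proteins, none was called lower. Oosp1 was the most abundant of them, with an FPKM of 1874 and 1852 in NSN and 1779 and 2032 in SN. The groups overlapped, and the log2 fold change was 0.03 with a standard error of 0.08 and a 95% confidence interval from −0.17 to 0.23 (limma adjusted p = 0.831). This direction flipped to −0.13 when each library was scaled by its median ratio, and to −0.07 without SN replicate 2.

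Oosp2 was the least abundant of the 7 genes. Its FPKM was 229 and 243 in NSN and 300.1 and 296 in SN, and the groups did not overlap. The log2 fold change was 0.34 with a standard error of 0.07 (limma adjusted p = 0.0452). Oosp2 and Oosp3, 2 of the 3 Oosp members, were higher in each SN library than in each NSN library, as were 44.8% of all tested genes. The call of Oosp2 was lost after median scaling (log2 fold change 0.18, limma adjusted p = 0.170), quantile normalization (0.0563), with the replicate block (0.0704), without a filter on low values (0.0689) and without a variance trend (0.127). It was also lost when any 1 of the 4 libraries was left out, with log2 fold changes between 0.29 and 0.38 and limma adjusted p-values from 0.053 to 0.195. Oosp3 had an FPKM of 471 and 524 in NSN and 535 and 618 in SN, and its log2 fold change of 0.21 with a standard error of 0.10 did not pass the test (limma adjusted p = 0.192).

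The median log2 fold change of all tested genes was 0.14, so most genes had a slightly higher FPKM in SN. After median scaling, which brought that median to 0.01, the log2 fold changes were −0.68 for Oas1c, −0.67 for Oas1d, −0.69 for Oas1e and −0.37 for Oas1h. Those of the Oosp genes were −0.13 for Oosp1, 0.18 for Oosp2 and 0.05 for Oosp3. On this scale Oas1c, Oas1d and Oas1e were still called, with limma adjusted p-values of 0.0471, 0.0471 and 0.0455, and no Oosp gene was. As deposited, 3.60% of tested genes had a lower log2 fold change than Oas1e, 13.9% a lower one than Oas1h and 74.9% a lower one than Oosp2. As deposited, 695 genes were called higher and 231 lower, against 78 higher and 180 lower after median scaling and 74 higher and 156 lower after quantile normalization. Of the 346 tested genes whose mean FPKM was 200 or more, a level chosen after the values were seen and passed by all 7 genes, 10.7% were called lower and 2.89% higher as deposited, and their median log2 fold change was −0.01.

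**Figure D2:**
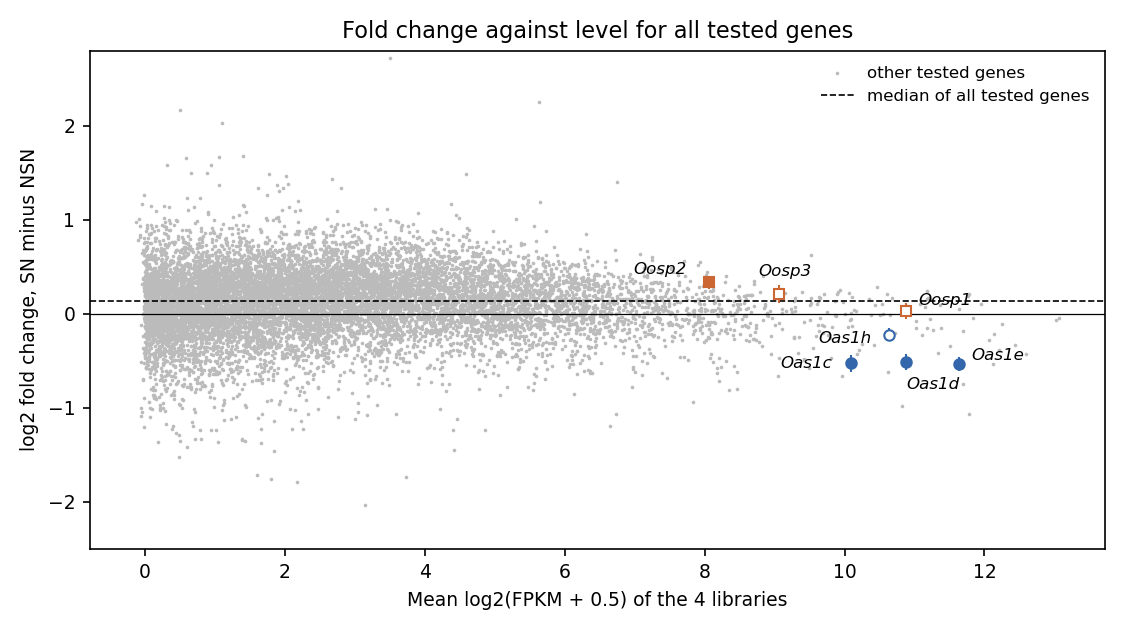
Log2 fold change (SN minus NSN, as deposited) of each tested gene against its mean log2(FPKM + 0.5) over 4 libraries. Circles are Oas1 genes and squares Oosp genes, filled where called, with bars of 1 standard error; the dashed line is the median of all tested genes (0.14). Oas1c, Oas1d and Oas1e sit between −0.51 and −0.53 among the most abundant transcripts, and Oosp1, at 0.03, turns negative after median scaling.

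The order of the levels changed with the configuration. In both NSN libraries it ran Oas1e, Oas1d, Oosp1, Oas1h, Oas1c, Oosp3 and Oosp2 from high to low, and no 2 neighbours in this order overlapped. In both SN libraries Oosp1 stood above Oas1d. The FPKM ratio of Oosp1 to Oas1d was 0.827 and 0.831 in NSN and 1.05 and 1.38 in SN (exact permutation p = 0.333). Oas1d and Oas1h overlapped in SN, where Oas1h was the higher of the pair in SN replicate 2 alone.

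The 7 genes lie in 2 clusters. In GRCm39 (GENCODE M39) the Oas1 members lie on chromosome 5, with Oas1e at chr5:120924291-120933595 and Oas1c at chr5:120938259-120950579 on the minus strand. Oas1h at chr5:120999483-121011569 and Oas1d at chr5:121026744-121059724 are on the plus strand. Oas1b, Oas1f and Oas1g lie between them, and Oas1a lies within the span of Oas1d on the opposite strand with no shared exonic base. The Oosp genes lie on chromosome 19, with Oosp2 at chr19:11624643-11637923 and Oosp1 at chr19:11644824-11668514 on the minus strand and Oosp3 at chr19:11674419-11689238 on the plus strand.

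Levels within the Oas1 cluster spanned several orders of magnitude. Oas1f, between Oas1b and Oas1h, had an FPKM of 33.3 and 40.6 in NSN and 35.7 and 35.1 in SN. Oas1b, which carries a premature stop codon in C57BL/6J and many other laboratory strains, had 7.79 and 9.94 in NSN and 9.06 and 10.3 in SN. Oas1g, an active synthetase gene, was near the lower limit, with 21 and 21 read pairs in NSN and 22 and 11 in SN. These 3 genes overlapped between groups, and none passed the test (limma adjusted p = 0.78, 0.579 and 0.597). Of the summed FPKM of the 7 listed Oas1 genes, Oas1e made up 42.1% and 41.6% in NSN and 40.1% and 39.6% in SN. Oas1h made up 18.3% and 19.2% in NSN and 21.0% and 23.4% in SN, and Oas1f at most 0.549% in any library.

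**Figure D3:**
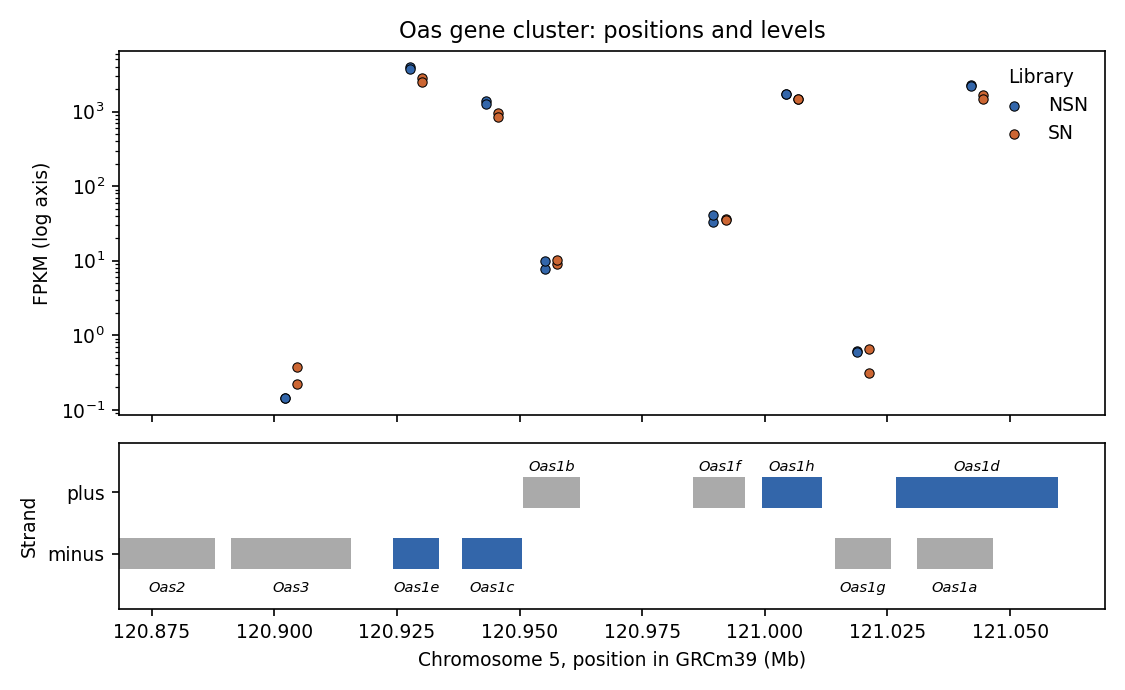
Top, FPKM on a log axis of the listed genes Oas3, Oas1e, Oas1c, Oas1b, Oas1f, Oas1h, Oas1g and Oas1d, with 1 point per library, NSN in blue and SN in orange, placed at the middle of each gene. Bottom, gene spans on both strands of chromosome 5 in GRCm39, with the 4 member genes in blue and other genes in grey; Oas1a and Oas2 have no points because they are not listed. The members lie at an FPKM of 857 or more in every library and the other Oas genes at 40.6 or less.

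Of the 8 other OAS family genes, 6 were listed and 4 tested, and 0 were called (limma; 0 with voom on read pairs, and 0 at an unadjusted p under 0.05). Their median log2 fold change was −0.11, beside 0.14 over all tested genes. Among all genes, 3695 of 11672 had an unadjusted limma p under 0.05, and voom called 2297 of 11660. Oasl1 had an FPKM of 3.41 and 3.57 in NSN and 3.53 and 2.65 in SN (limma adjusted p = 0.523). Oas3, a larger family member, was below the filter at 12 and 12 read pairs in NSN and 30 and 19 in SN, and Oasl2 at 5 and 3 in NSN and 5 and 7 in SN. Oas1a and Oas2 were not listed and were not analysed here.

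The genes that flank the clusters did not share these levels. The 9 listed neighbours outside the Oas1 cluster that bear no Oas symbol had mean FPKM from 0.227 to 145, the highest being the ribosomal protein gene Rpl6. The 10 neighbours of the Oosp cluster ranged from 0.0598 to 51.9, the highest being Ms4a1. Of the 13 neighbours tested limma called 0, and 4 had an unadjusted p under 0.05, as did 3695 of all 11672 tested genes. Voom on read pairs called 2, Ms4a1 and Rph3a, beside 2297 of 11660 over all genes. When a mean FPKM of 5 was required, limma called 2, beside 1496 of 5519 over all genes. Without NSN replicate 2, limma called Ms4a1.

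Some Oas1 genes are close in sequence. The coding sequences of Oas1d and Oas1e had 90.9% identical bases, those of Oas1c and Oas1e 85.5%, and those of Oas1c and Oas1d 84.6%. Oas1h was further off, with 77.9% to Oas1e. Of the 31-base words in the main transcript, 26.8% in Oas1c, 22.5% in Oas1d and 25.1% in Oas1e also occurred in another gene, against 7.23% in Oas1h. The authors counted primary alignments above a cutoff of mapping quality, so reads from such stretches could be dropped. The levels of Oas1c, Oas1d and Oas1e are uncertain for this reason, by an amount that was not measured. Oas1c also shares 227 exonic bases with Gm43069, and Oosp3 shares 57 with Gm19224, and counting was without strand. The Oosp genes shared 39.7% to 50.0% of aligned coding bases, and Oosp1 and Oosp2 shared no 31-base word with any other gene.

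The catalytic pocket of an OAS enzyme holds metal ions bound by aspartates, a pair of which lie on either side of an alanine. The coding sequence around these codons is shown because the abundant Oas1 genes differ from Oas1a there. Each run is 33 coding bases in GRCm39, written 5′ to 3′ on the gene's own strand, and capitals mark the 3 codons that align with codons 76 to 78 of Oas1a. They come from chr5:121043885-121043917 (Oas1a, minus strand), chr5:120946251-120946283 (Oas1c, minus), chr5:121053755-121053787 (Oas1d, plus), chr5:120932396-120932428 (Oas1e, minus), chr5:120986262-120986294 (Oas1f, plus) and chr5:121000626-121000658 (Oas1h, plus), in exon 3 of Oas1c and exon 2 of the others.
Oas1a: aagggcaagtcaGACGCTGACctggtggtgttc
Oas1c: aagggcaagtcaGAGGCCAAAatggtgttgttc
Oas1d: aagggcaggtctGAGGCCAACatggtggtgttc
Oas1e: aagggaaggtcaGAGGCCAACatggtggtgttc
Oas1f: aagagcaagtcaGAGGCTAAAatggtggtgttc
Oas1h: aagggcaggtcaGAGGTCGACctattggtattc

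With positions counted from 1 at the 5′ end of the window, the capitals of Oas1d and Oas1e differed from Oas1a by C15G, T18C and G19A, and those of Oas1c by C15G, T18C, G19A and C21A. Oas1f differed by C15G, G19A and C21A, and Oas1h by C15G, C17T and T18C. Of the first and last of these codons, 2 were aspartate codons in Oas1a, Oas1b and Oas1g, 1 in Oas1h and 0 in Oas1c, Oas1d, Oas1e and Oas1f. The 4 member genes, with an FPKM of 857 or more in every library, thus all lacked at least 1 of these codons. Of the listed genes that had both, Oas1b was covered by 249 to 341 read pairs and Oas1g by 11 to 22.

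The RefSeq promoter table (GRCm38.p6, 300 bases per window, 32544 windows) held 4 of the 7 genes, Oas1c, Oas1h, Oosp1 and Oosp2, while Oas1d, Oas1e and Oosp3 were not in it. Both strands were searched. The E-box CANNTG, found in 72.3% of all windows, occurred 2 times in the Oas1h window, 5 times in Oosp1, 1 time in Oosp2 and 0 times in Oas1c. The NOBOX-type element TAATTG, found in 8.01% of windows, was in none of the 4. The core of the interferon-stimulated response element (GAAA, any 2 bases, GAAA), found in 3.45% of windows, was present among the 4 only in the Oas1c window, and also in those of Oas1a, Oas1g and Oas3. A match is a description of letters and not of binding.

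The Oas1c match is shown because Oas1c and Oas1b start close together on opposite strands with this stretch between them. By sequence match the 30 bases lie at chr5:120950671-120950700 in GRCm39, printed on the plus strand. Capitals mark 16 bases that hold 2 overlapping matches, 99 bases from the start of Oas1c and 10 bases from the start of the main Oas1b transcript. The same 16 bases stand in the Oas1g and Oas1a windows, at chr5:121025672-121025701 and chr5:121045586-121045615 on the minus strand, within an identical run of 30 bases.
Oas1c and Oas1b: ttcccggGAAATGGAAACTGAAAgtcccat
Oas1g and Oas1a: ttctcggGAAATGGAAACTGAAAatctact

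On either side of this site, Oas1c had an FPKM from 857 to 1375 and Oas1b from 7.79 to 10.3, and Oas1c was called lower in SN where Oas1b was not. The difference between their changes was not tested.

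Other genes of the 2-5A and interferon pathways were mostly low. Of 3 listed partners of the 2-5A pathway, 2 were tested and 0 were called (limma; 1 had an unadjusted p under 0.05, and voom on read pairs called 1). The shares over all genes were 3695 of 11672 at that unadjusted p and 2297 of 11660 with voom. Abce1, an ATPase that recycles ribosomes, had an FPKM of 5.83 and 4.89 in NSN and 3.77 and 3.09 in SN (limma adjusted p = 0.0659), and it was called lower without NSN replicate 2 (log2 fold change −0.69, limma adjusted p = 0.0438). Pde12, a phosphodiesterase that degrades 2-5A, had 1.06 and 1.16 in NSN and 1.39 and 1.06 in SN (limma adjusted p = 0.766).

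Of 16 symbols for double-stranded RNA sensors and their adaptors, 12 were listed and 7 tested, with 0 called (limma; 1 had an unadjusted p under 0.05, and voom on read pairs called 1, both times the RNA-editing gene Adar, named after its values were seen) and a median log2 fold change of −0.12. The most abundant were Rigi, an RNA helicase sensor, at 12.0 and 13.9 in NSN and 13.0 and 14.3 in SN, and Tarbp2, a Dicer partner, at 10.9 and 12.5 in NSN and 10.7 and 10.7 in SN. Neither passed the test (limma adjusted p = 0.708 and 0.515). An unadjusted limma p under 0.05 was found for 3695 of all 11672 tested genes, and voom called 2297 of 11660.

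Of 23 genes of interferon receptor signalling, 14 were listed and 10 tested, with a median log2 fold change of 0.01. Of these 10, 1 was called higher and 0 lower, beside 5.95% higher and 1.98% lower over all tested genes. The gene called was Jak2, a receptor-bound tyrosine kinase. It had an FPKM of 15.6 and 20.3 in NSN and 30.1 and 27.6 in SN. The groups did not overlap, and the log2 fold change was 0.68 with a standard error of 0.14 (limma adjusted p = 0.044). The call was lost after median scaling (limma adjusted p = 0.0664), after quantile normalization (0.0674), with the replicate block (0.057), without a filter on low values (0.0642) and without a variance trend (0.0958). It was also lost when NSN replicate 1, SN replicate 1 or SN replicate 2 was left out (limma adjusted p = 0.102, 0.109 and 0.0962). Without NSN replicate 2 the list had 2 calls, Jak2 higher and Irf3 lower. Irf1, the most abundant of the list, had 87.9 and 91.4 in NSN and 98.2 and 90.5 in SN (limma adjusted p = 0.569).

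Of 30 interferon-stimulated genes, 10 were listed and 6 tested, and 0 were called (limma). Of these 6, 1 had an unadjusted limma p under 0.05, beside 3695 of all 11672 tested genes. Voom on read pairs called 1, beside 2297 of 11660 over all genes. The median log2 fold change of the 6 was 0.12. The gene with the low p was Gbp7, an interferon-induced GTPase named here after its values were seen, with an FPKM of 6.70 and 6.88 in NSN and 4.27 and 2.05 in SN, a log2 fold change of −1.06 and a standard error of 0.28 (limma adjusted p = 0.0625). It was called without SN replicate 1 (log2 fold change −1.52, limma adjusted p = 0.024). Ifitm3, which blocks viral entry, was highest, at 29.6 and 32.9 in NSN and 31.02 and 36.4 in SN, followed by Cmpk2, a mitochondrial nucleotide kinase, at 19.9 and 21.6 in NSN and 22.1 and 23.2 in SN. The Oas1 members, at 857 or more, thus stood far above the interferon-stimulated genes listed in the same libraries.

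Among 12 genes for oocyte-secreted proteins and for proteins related to the Oosp family or the zona pellucida, 10 were listed and tested. Over all tested genes 1.98% were called lower and 5.95% higher, with a median log2 fold change of 0.14. Of those with a mean FPKM of 200 or more, 10.7% were called lower and 2.89% higher. Of the 10 genes in the list, 6 were called lower and 0 higher, and their median log2 fold change was −0.42. Zp3, the most abundant, had an FPKM of 7281 and 7063 in NSN and 5425 and 5208 in SN (log2 fold change −0.43, standard error 0.07, limma adjusted p = 0.0364); quantile normalization set its change to 0.000, since it ranked 3 in every library. Gdf9 and Bmp15, growth factors that act on granulosa cells, had log2 fold changes of −1.06 and −0.61 with standard errors of 0.08 and 0.09 (limma adjusted p = 0.0364 for both). Those of Astl, the protease that cleaves ZP2 after fertilisation, and of Zp1 were −1.06 and −0.66, with standard errors of 0.16 and 0.08 (limma adjusted p = 0.0364 for both). Zp2 followed at −0.41, with a standard error of 0.09 (limma adjusted p = 0.0449). Without NSN replicate 1, without a filter on low values and without a variance trend none of these 6 was called (limma), and without SN replicate 2 only Gdf9 was. The call of Zp2 was also lost after median scaling and quantile normalization (limma adjusted p = 0.0541 and 0.0616), and those of Zp2 and Zp3 without NSN replicate 2 (0.0781 and 0.0823). Plac1, named here after its values were seen because PLAC1 is related to the Oosp proteins, had an FPKM of 0.247 and 0.760 in NSN and 2.10 and 0.916 in SN. Its groups did not overlap, and the log2 fold change of 0.98 with a standard error of 0.36 did not pass the test (limma adjusted p = 0.121), though it did without NSN replicate 2 (log2 fold change 1.36, limma adjusted p = 0.0451). These values rest on 6 and 19 read pairs in NSN and 50 and 23 in SN.

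The genes closest to the Oas1 pattern were sought among 3913 other tested genes whose mean FPKM reached 10, by the root mean square difference of centred log2 values over 4 libraries. Among the 5 closest to the mean profile of the 4 Oas1 genes were Eif4enif1, an eIF4E-binding repressor of translation (0.0113), Abhd4 (0.0179), Dnaja3 (0.0187) and Maea (0.0215). Oas1h itself lay further off, at 0.129, than Oas1c, Oas1d and Oas1e at 0.0531, 0.0453 and 0.0425. The members of the Oosp family lay at 0.0898 (Oosp1), 0.0887 (Oosp2) and 0.0412 (Oosp3) from their own mean profile. The 5 closest other genes, selected for their closeness, were Gm17830 (0.00431), Exosc9 (0.0049), Afap1l2 (0.00772), Apoo (0.00827) and Spag7 (0.0086).

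Marker genes were then summed for each library. Of 15 oocyte markers 14 were listed, with a summed FPKM of 23216 and 21792 in NSN and 15649 and 14923 in SN. Zp3 was the most abundant of them. Over all tested genes 1.98% were called lower and 5.95% higher, with a median log2 fold change of 0.14. Of those with a mean FPKM of 200 or more, 10.7% were called lower and 2.89% higher. All 14 markers were tested, 9 were called lower and 0 higher, and their median log2 fold change was −0.46. Of these 9, Zp2, Mos and Ddx4 were not called after median scaling (limma adjusted p = 0.0541, 0.0556 and 0.0582). The list had 4 calls after quantile normalization, 1 without SN replicate 2 and 0 without NSN replicate 1, without a filter on low values and without a variance trend. Zp1, Zp2, Zp3, Gdf9 and Bmp15 are in this list and in that of oocyte-secreted and zona pellucida proteins. Of 16 granulosa and cumulus markers 11 were listed, with a summed FPKM of 9.77 and 14.3 in NSN and 14.4 and 14.1 in SN. Cyp19a1 was the most abundant of them, at 5.81 and 8.06 in NSN and 8.38 and 8.22 in SN, Amh, Foxl2, Fst, Wt1 and Amhr2 were not listed, and 0 of 4 tested were called (limma; 0 with voom on read pairs, and 0 had an unadjusted p under 0.05). Of 12 immune cell markers 4 were listed, with a summed FPKM of 38.5 and 45.2 in NSN and 40.0 and 31.7 in SN, nearly all from C1qb, while Ptprc was not listed and 0 of 3 tested were called (limma; 0 with voom on read pairs, and 0 had an unadjusted p under 0.05). Among all genes tested, 3695 of 11672 had an unadjusted limma p under 0.05, and voom called 2297 of 11660. The part of the fall in oocyte markers in the Oas1 result was not tested.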

How the data were processed

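RNA from mouse oocytes was measured in 4 Smart-seq2 libraries, 2 NSN and 2 SN, grouped by their titles. The authors trimmed reads with Trim Galore 0.6.10, used HISAT2 with GRCm39 for mapping and featureCounts for unstranded counting on exons, and deposited FPKM for each library. They used DESeq2 on counts that were not used here. Because FPKM are not counts, log2(FPKM + 0.5) of the 11672 genes whose mean FPKM reached 0.5 was compared with limma 3.58.1 in R 4.3.3 (lmFit, eBayes with a variance trend). Whole read pairs were recovered for 16842 genes (99.89%, tolerance 0.001 read pairs) from library totals read from 5 mitochondrial tRNA genes; listed genes hold 97.96% to 97.98% of the totals. Calls are two-sided. On simulated data the fit found nearly all large changes and missed most small ones, and the share of false calls was above the adjusted p threshold, so calls close to that threshold are less certain than it implies. Coding sequences were aligned with MAFFT 7.526, and tables and plots were made with Python 3.11.15, pandas 2.3.3 and matplotlib 3.10.9. Positions came from GENCODE M39, in which 97.76% of symbols occur once. The members and lists were chosen with earlier results of these data known. Named genes are the 7 members, listed OAS genes and, from each other pathway list, the called genes (up to 6) and the 2 most abundant; some items are not reported here. Alternatives were other pseudocounts and filters, median scaling, quantile normalization, no variance trend, a replicate block, adjusted p alone, voom on read pairs, and leaving out each library.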

Additional observations from a re-analysis of the deposited data

How the results depend on the processing

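The number of the 7 genes called, 4, was 0 without a filter on low values and without a variance trend, where limma called 0 genes in all but 4092 and 3449 had an unadjusted p under 0.05, and 1 after quantile normalization. Leaving out 1 library gave 0 to 3. All genes called, 926 as reported, became 2297 with voom on read pairs, 1496 when a mean FPKM of 5 was required, 230 after quantile normalization and 258 after median scaling, and ranged from 0 to 1680 without 1 library. The share of calls that were higher was 75.1%, 30.2% after median scaling and 32.2% after quantile normalization, and 81.3%, 34.6% and 33.3% without NSN replicate 2, SN replicate 1 and SN replicate 2. With the replicate block 422 genes and 3 of the 7 were called, Oosp2 being lost (limma adjusted p = 0.0704); the libraries share only a number, and their deviations had a correlation of −0.0703 across genes.

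Among the 7 genes, Oosp1 reversed to −0.125 after median scaling, and ranged from −0.066 (without SN replicate 2) to 0.126 without 1 library. For Oas1c, Oas1d and Oas1e every alternative kept a negative log2 fold change, from −0.69 to −0.38, with limma adjusted p-values up to 0.130. Among other named genes followed through the alternatives, those that reversed were not called, except Zp3. Median scaling reversed Oas1b (−0.018), Pde12 (−0.020), Rigi (−0.077), Irf1 (−0.081), Ifitm3 (−0.046) and Cmpk2 (−0.026). It also turned the neighbour gene Rpl6, not called, from 0.113 to −0.041. Quantile normalization reversed Oas1b (−0.060), Pde12 (−0.008), Rigi (−0.115), Ifitm3 (−0.006) and Cmpk2 (−0.037) and set Zp3, ranked 3 in every library, to 0.000 by construction. Leaving out 1 library gave ranges across 0 for Oas1b (−0.038 to 0.295), Oas1f (−0.194 to 0.089), Oas1g (−0.445 to 0.064), Oasl1 (−0.343 to 0.015), Pde12 (−0.050 to 0.227), Rigi (−0.033 to 0.177) and Ifitm3 (−0.007 to 0.220). The cause of the other changes was not tested. The 11 to 22 read pairs of Oas1g limit what its values can show.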
